A study of Mus musculus with 8 samples.

Results

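Serpina3n, Serpina3k, Serpina3g, Serpina3f, Serpina3c, Itih4, Hp, Saa3, Orm1 and Lcn2 are mouse genes for secreted or intracellular proteins of the acute-phase and serpin families, and their RNA levels in brown adipose tissue are described here. The 10 genes were taken by symbol out of the 54532 genes of a deposited expression table, and each symbol matched 1 row. They had been picked with the difference between knockout and wild-type tissue in view, so that difference is given for them as a description and is not tested as a result. The OGTBKO group (4 libraries) came from mice with a knockout of Ogt, the enzyme that attaches O-GlcNAc to proteins inside the cell, restricted to brown adipocytes. The WT group (4 libraries) came from wild-type mice labelled as control for treatment. All mice were kept at 23 °C on standard chow and were induced after 8 weeks with an agent spelled gomaxifen in the labels. The tissue was collected 2 months later and freed of surrounding white fat. The labels name neither the Cre driver nor the number of animals behind a library, so the spread between libraries may be technical in part. The cell type is labelled adipocytes, although whole tissue was taken.

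Acute-phase proteins are plasma proteins whose output from the liver changes during inflammation and injury. Interleukin-6 acts through STAT3 to raise many of them, and interleukin-1, C/EBP factors and glucocorticoids add to the response. Serpins are protease inhibitors that trap their target by a change of shape. The single human gene SERPINA3, for antichymotrypsin, corresponds in mouse to a cluster of neighbouring Serpina3 genes on chromosome 12, of which Serpina3n is the member usually set beside the human protein. Itih4 encodes a plasma protein of the inter-alpha-trypsin inhibitor heavy chain family that plasma kallikrein can cut. Haptoglobin (Hp) binds free haemoglobin. Orosomucoid (Orm1) is a lipocalin that carries small molecules in plasma, Lcn2 is a lipocalin that binds bacterial siderophores, and Saa3 is a serum amyloid A made mainly outside the liver. Adipose tissue is a known source of haptoglobin, orosomucoid and several of the others.

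The sequences upstream of Serpina3n and Serpina3c are shown because these genes, copies of the same ancestor, had the highest levels of the Serpina3 cluster here and did not differ alike between the groups. Each window holds the 250 bases before the annotated start, 5′ to 3′ in the direction of the gene, from RefSeq on GRCm38.p6, at chr12:104406458-104406707 on the plus strand for Serpina3n and chr12:104153873-104154122 on the minus strand for Serpina3c. Capitals mark bases that differ between the windows or lie opposite a gap.
Serpina3n: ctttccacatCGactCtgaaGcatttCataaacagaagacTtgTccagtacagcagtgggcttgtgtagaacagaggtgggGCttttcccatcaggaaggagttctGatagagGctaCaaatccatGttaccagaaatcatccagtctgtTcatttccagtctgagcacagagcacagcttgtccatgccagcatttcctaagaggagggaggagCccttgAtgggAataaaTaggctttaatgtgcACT
Serpina3c: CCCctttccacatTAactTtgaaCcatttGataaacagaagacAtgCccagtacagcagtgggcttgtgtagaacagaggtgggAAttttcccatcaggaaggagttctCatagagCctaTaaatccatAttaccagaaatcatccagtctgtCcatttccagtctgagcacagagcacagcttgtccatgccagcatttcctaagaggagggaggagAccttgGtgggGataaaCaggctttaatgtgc
The windows were 90.5% identical over 253 alignment columns, with 18 differing bases and 6 bases opposite a gap. The coding sequences of the same genes were 84.8% identical.

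The window before Itih4, at chr14:30886226-30886475 on the plus strand, is shown because Itih4 had the lowest ratio of OGTBKO to WT means of the 10 genes. Its capitals mark a match to the STAT motif TTCNNNGAA, whose first base lies at position -51 from the start.
Itih4: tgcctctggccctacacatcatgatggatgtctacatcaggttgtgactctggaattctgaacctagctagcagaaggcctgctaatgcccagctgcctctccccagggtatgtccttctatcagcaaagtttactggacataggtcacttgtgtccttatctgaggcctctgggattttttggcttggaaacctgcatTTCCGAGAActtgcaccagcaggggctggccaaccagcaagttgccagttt
The STAT motif was present in 7.02% of the 32851 mouse windows of this length. The other motif reported, TTNNGCAA for C/EBP, was present in 9.56% of windows, and each was searched on both strands. Windows were matched for 7 of the 10 genes, leaving Serpina3k, Hp and Orm1 without one. Neither motif was found in the Serpina3n or Serpina3c window. A STAT match was also found before Serpina3g and Serpina3f, and a C/EBP match before Serpina3f, Saa3 and Lcn2, with no overlap between matches of the 2 motifs. These are matches of letters and do not show that a factor binds there.

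Libraries held 13393962 to 15897920 reads assigned to genes, and the value of 1 read in a 1 kb gene was 0.0556 to 0.0945 FPKM (fragments per kilobase of gene, scaled for depth by the authors). Ogt measured 12.4 ± 1.65 FPKM in OGTBKO, against 26.0 ± 4.80 FPKM in WT (mean ± SD, n = 4 each, as for all means below). By limma its log2 change was -1.03 ± 0.14 (SE) with an adjusted p = 0.00511. The labelled genotypes thus matched the level of the targeted gene, which fell in whole tissue without reaching 0. The libraries carried unequal amounts of RNA from other cells. The sum of 10 skeletal muscle markers was 1541 FPKM in OGTBKO 1 and 515 FPKM in WT 1, against at most 37.8 FPKM in the other libraries. The sum of 9 liver markers other than Cyp2e1, which fat also expresses, ranged from 0.980 to 5.30 FPKM in OGTBKO and was 1.13, 20.6, 7.39 and 28.6 FPKM in WT 1 to WT 4. Summed markers of mesothelium ranged from 1.15 to 1.60 FPKM in OGTBKO and from 1.77 to 2.29 FPKM in WT, and those of white adipocytes from 158 to 204 FPKM in OGTBKO and from 53.3 to 127 FPKM in WT, without overlap, and their part in the differences below was not tested. Those of macrophages, T and NK cells, fibroblasts and endothelium overlapped. WT 3 had the highest mitochondrial share of reads, 39.4%, against 25.2 to 30.2% in OGTBKO and 27.2 to 32.2% in the other WT libraries. Fold changes below are on the log2(FPKM + 0.5) scale, which understates the change of low genes, and a call means an adjusted p under 0.05 by limma over all genes tested. Genes with a mean under 0.5 FPKM over the 8 libraries were not tested.

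Of the 10 genes, 7 passed this filter, and Serpina3g, Serpina3f and Saa3 did not. Lcn2, with a mean of 0.912 FPKM, lay just inside and Serpina3g, with 0.296 FPKM, just outside. Serpina3k passed only through its WT libraries, with a mean of 2.07 FPKM in WT and 0.332 FPKM in OGTBKO, so its call depends on that filter. Serpina3n, Serpina3k, Itih4 and Hp were called lower in OGTBKO, none was called higher, and Serpina3c, Orm1 and Lcn2 were not called. Over all 13171 genes tested 15.6% were called, 7.46% as lower and 8.11% as higher, and since the genes were picked on this contrast nothing is read from their count. In the same 4 genes every OGTBKO library lay below every WT library, a pattern that 11.4% of all genes tested showed. The median log2 change was -0.83 over the 7 genes and -0.00 over all genes tested. Without OGTBKO 3, which ended the calls of Serpina3n and Serpina3k, 2 genes were called lower. Without WT 2 and WT 4, the WT libraries richest in liver RNA, 0 of the 7 were called and 176 of all genes remained past the threshold, against 2050 with all libraries. In tissue RNA, fewer cells of a type and less RNA per cell cannot be told apart.

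**Figure D1:**
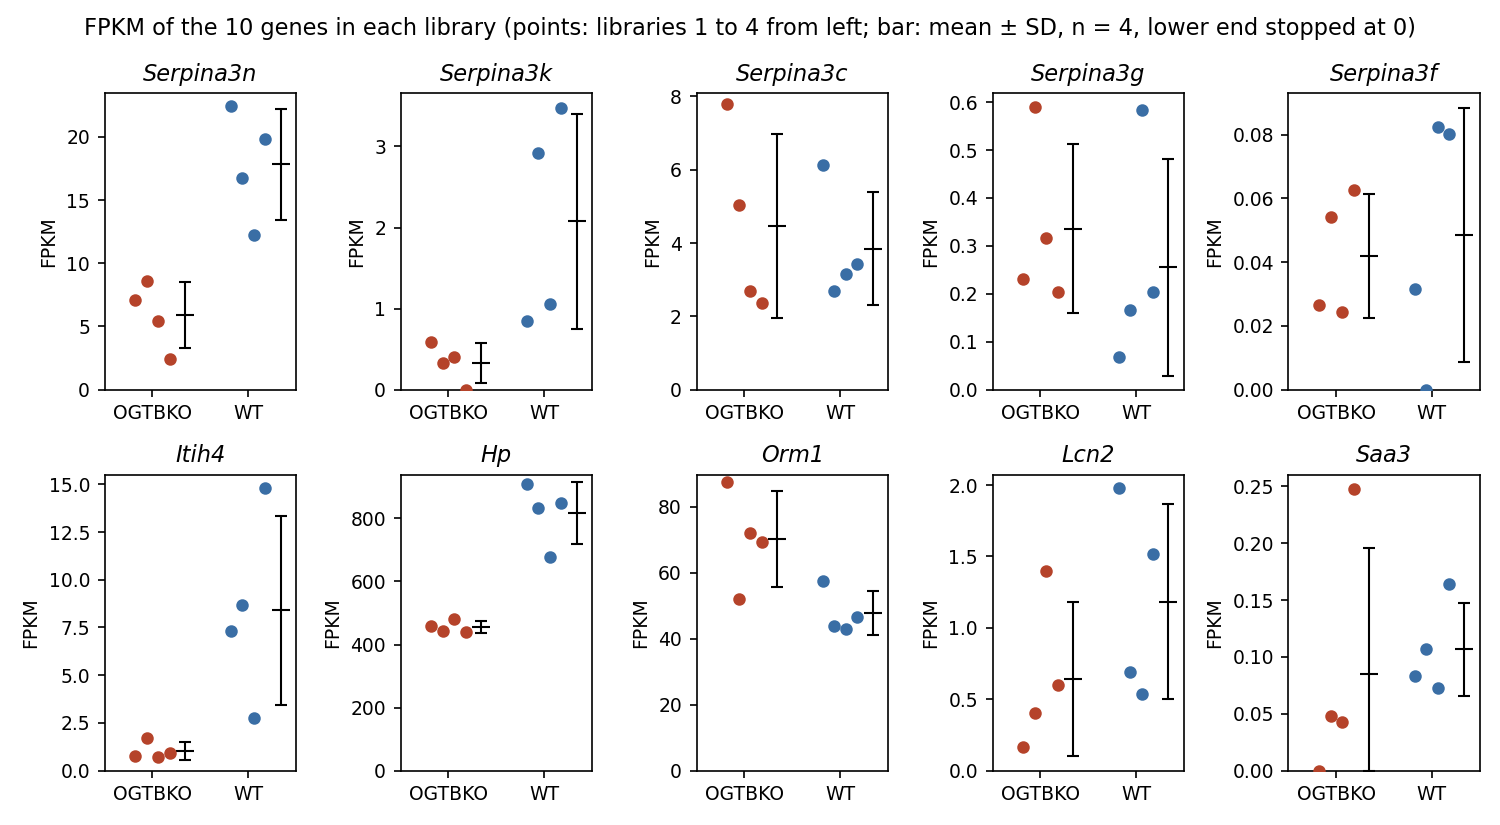
FPKM of the 10 genes in each library, 1 panel per gene, with OGTBKO libraries on the left and WT libraries on the right, points for libraries and bars for mean ± SD (n = 4) whose lower end stops at 0. The OGTBKO points lie below every WT point for Serpina3n, Serpina3k, Itih4 and Hp, and overlap with them in the others.

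Serpina3n, an inhibitor of serine proteases such as granzyme B and leukocyte elastase, had the highest length-scaled level of its cluster in every library but OGTBKO 1, where Serpina3c was higher. It measured 7.08, 8.57, 5.47 and 2.44 FPKM in OGTBKO 1 to OGTBKO 4, against 22.4, 16.7, 12.3 and 19.9 FPKM in WT 1 to WT 4. The groups were apart, with the highest OGTBKO library below the lowest WT library. The means were 5.89 ± 2.63 FPKM in OGTBKO and 17.8 ± 4.38 FPKM in WT, a log2 change of -1.60 ± 0.33 (SE). The values rested on 70 to 285 reads per OGTBKO library and 268 to 670 reads per WT library. Serpina3n lies at chr12:104406729-104414329 on the plus strand of mm10. Its log2 change was -1.61 without OGTBKO 3, where the call ended, and ranged from -1.81 to -1.27 over the libraries left out in turn.

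Serpina3k, at chr12:104338486-104346144 on the plus strand, encodes the kallikrein-binding serpin contrapsin, a plasma protein made chiefly by the liver. It measured 0.592, 0.332, 0.406 and 0 FPKM in OGTBKO, against 0.842, 2.92, 1.06 and 3.48 FPKM in WT. The groups were apart, but the gap between OGTBKO 1 and WT 1 was small, and the reads behind the values numbered only 20, 11, 15 and 0 in OGTBKO and 24, 86, 23 and 117 in WT. The 0 in OGTBKO 4 allows a level of up to 0.105 FPKM, which is 3 reads, by counting error alone. The log2 change was -1.53 ± 0.39 (SE). The call ended with OGTBKO 2, OGTBKO 3, OGTBKO 4, WT 2 or WT 4 left out, with changes of -1.55, -1.59, -1.30, -1.34 and -1.27. It ended too with the replicate block, with library totals as denominator and without a filter, and the change was -2.40 with a pseudocount of 0.1.

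WT 2 and WT 4 were the highest libraries both for Serpina3k and for Alb, the albumin gene that defines hepatocytes. Alb measured 0.650, 0.848, 1.78 and 0.184 FPKM in OGTBKO, against 0.400, 10.3, 3.87 and 16.3 FPKM in WT. The ratio of Serpina3k to Alb was 0.911, 0.391, 0.228 and 0 in OGTBKO and 2.10, 0.282, 0.273 and 0.214 in WT, so WT 2, WT 3 and WT 4 lay close to one another and to OGTBKO 3. WT 1, whose liver marker sum of 1.13 FPKM lay within the OGTBKO range, had 0.842 FPKM of Serpina3k on 24 reads. The highest OGTBKO library, OGTBKO 1, had 0.592 FPKM on 20 reads, a difference too small to read at this depth. WT 1 also had the most reads of Serpina3m, 20, a gene that shares stretches of sequence with Serpina3k. Without WT 2 and WT 4 the log2 change of Serpina3k was -0.85 and was not called. Of the 10 liver markers 4 were tested and limma called 0, with 1 of them, Alb, lower at an unadjusted p under 0.05; none was at 0 in every library. The part of liver RNA in the difference of Serpina3k was not tested. For Serpina3n the change without WT 2 and WT 4 was -1.54 and was not called, against -1.60 with all libraries. WT 1 had the highest level of Serpina3n. The part of liver RNA in the difference of Serpina3n was not tested either.

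Serpina3c, at chr12:104146382-104153870 on the minus strand, is a serpin of the cluster that adipocytes are known to express. It measured 7.79, 5.05, 2.69 and 2.37 FPKM in OGTBKO, against 6.13, 2.68, 3.16 and 3.43 FPKM in WT. The groups overlapped, and the highest library of each, OGTBKO 1 and WT 1, was the one with skeletal muscle RNA, whose part in these levels was not tested. The means were 4.47 ± 2.51 FPKM in OGTBKO and 3.85 ± 1.55 FPKM in WT, and the 95% interval of the log2 change, -0.67 to 0.91, holds changes of either sign. The change of 0.12 became -0.17 without OGTBKO 1 and -0.01 without WT 2.

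Serpina3g, which encodes an intracellular serpin that inhibits lysosomal cathepsins in leukocytes, gave 8, 20, 12 and 6 reads in OGTBKO and 2, 5, 13 and 7 reads in WT. Serpina3f gave 0 to 3 reads in every library. The groups overlapped for each of these genes, and no difference was detectable at this depth. The other Serpina3 genes were as low. Serpina3m gave 5, 4, 5 and 1 reads in OGTBKO and 20, 4, 1 and 2 reads in WT, and Serpina3i gave 12 reads in OGTBKO 1 and at most 1 read in any other library. Serpina3a, Serpina3b and Serpina3h gave at most 5 reads in a library, and Serpina3j gave 0 reads in all.

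The mix of the Serpina3 cluster is given as a description, since Serpina3n was picked on this contrast and makes up much of the sum. Summed over 11 genes its level was 16.3, 14.7, 9.15 and 5.33 FPKM in OGTBKO, against 30.4, 22.7, 17.3 and 27.1 FPKM in WT. Serpina3n made up 43.3, 58.1, 59.8 and 45.7% of that sum in OGTBKO, against 73.9, 73.5, 71.0 and 73.1% in WT. The WT shares lay within 3 percentage points of one another, and every OGTBKO share was lower. The ratio of Serpina3n to Serpina3c was 0.909, 1.70, 2.03 and 1.03 in OGTBKO, against 3.66, 6.23, 3.88 and 5.79 in WT. A ratio of genes within a library does not change with the scaling between libraries.

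**Figure D2:**
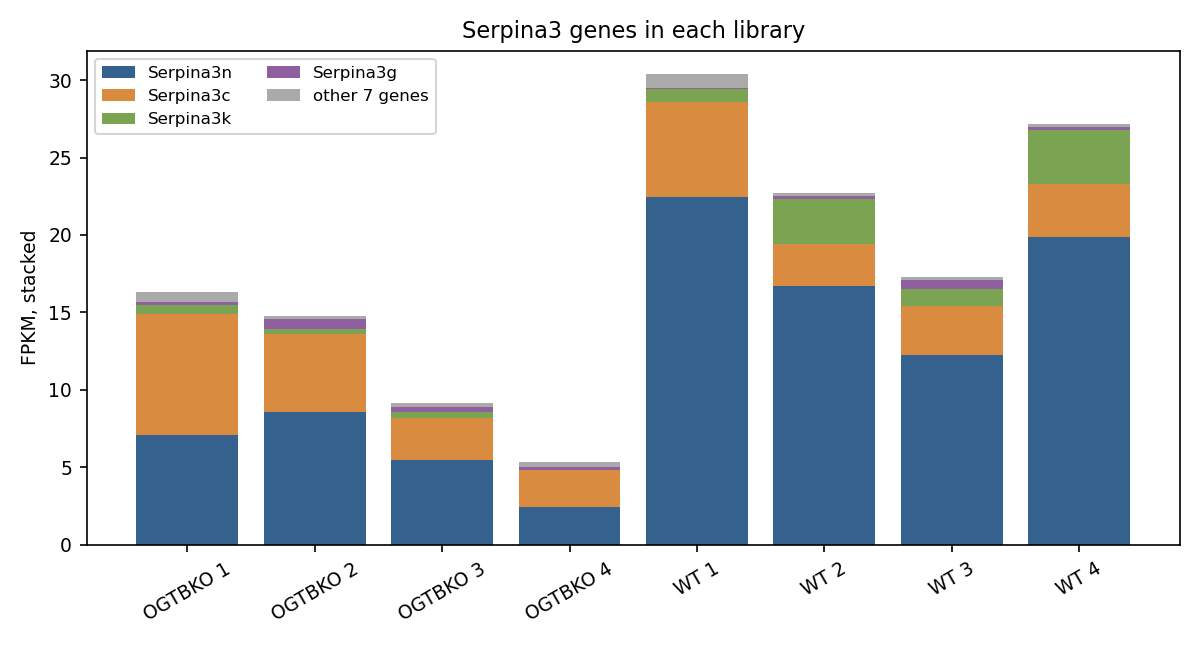
Level of the Serpina3 cluster in each library, as stacked bars of FPKM from 0 for Serpina3n, Serpina3c, Serpina3k, Serpina3g and the rest, with OGTBKO libraries on the left and WT libraries on the right. The Serpina3n portion is 43.3 to 59.8% of the bar in OGTBKO and 71.0 to 73.9% in WT.

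Near-identical stretches can place a read from 1 Serpina3 gene in another. The shares given here count only exact matches of stretches of a gene's longest transcript, so stretches with a mismatch are left out. Among annotated transcripts (GENCODE M21), Serpina3n shared 6.90% of its stretches of 50 bases and 0.204% of its stretches of 100 bases with other genes. For Serpina3c the shares were 4.25% and 0%. For Serpina3k they were 14.0% and 4.85%, the longer ones all with Serpina3m, and the first exon of Serpina3k, 60 bases at chr12:104338486-104338545, is annotated to Serpina3m as well. Serpina3g and Serpina3f shared 16.0% and 10.7% of their stretches of 50 bases. At 150 bases the share was 0.262% for Serpina3k and 0% for Serpina3n, Serpina3c, Serpina3g and Serpina3f. Neither the read length nor the treatment of reads with several matches is given in the sources used, so levels of Serpina3k, Serpina3g and Serpina3f are uncertain, and those of Serpina3n and Serpina3c less so.

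A list of 19 more clade A serpins was looked at, the other Serpina3 genes included. It does not hold all of clade A, since Agt was placed among the white adipocyte markers. None of the 19 had a mean of 0.5 FPKM or more. Of these, 14 had a read in some library and 5 had none. The antitrypsin genes Serpina1a, Serpina1b, Serpina1c, Serpina1d and Serpina1e had their highest read counts in WT 2 and WT 4, with 33 and 28 reads for Serpina1b and 19 and 58 reads for Serpina1e. Serpina6, Serpina10, Serpina11 and Serpina12 gave at most 4 reads in a library. Of 18 serpins of other clades 10 were tested and limma called 0, with 1 higher at an unadjusted p under 0.05 and a median log2 change of 0.09. Serpinf1, which encodes the antiangiogenic factor PEDF, was that gene, with 19.8 ± 6.37 FPKM in OGTBKO and 11.6 ± 2.87 FPKM in WT (log2 change 0.73, limma adjusted p = 0.0682), and it was called without WT 1, at 0.86. Serpinb6b, next by p, had a log2 change of 0.28.

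Itih4, at chr14:30886476-30902353 on the plus strand, had the lowest ratio of OGTBKO to WT of the 10 genes. It measured 0.759, 1.72, 0.708 and 0.915 FPKM in OGTBKO, against 7.33, 8.69, 2.76 and 14.8 FPKM in WT. The groups were apart, and the spread lay mostly among the WT libraries, with WT 3 lowest and WT 4 highest. The means were 1.02 ± 0.469 FPKM in OGTBKO and 8.40 ± 4.97 FPKM in WT, a log2 change of -2.39 ± 0.41 (SE). The reads numbered 46 to 102 in OGTBKO and 108 to 893 in WT. No stretch of 50 bases of Itih4 was found in another gene's transcripts. Its call held with each library left out in turn, at changes between -2.80 and -2.06.

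Itih4 is made in quantity by the liver, and WT 4 led both in Itih4 and in the liver marker sum. WT 1, with a liver marker sum of 1.13 FPKM and 0.400 FPKM of Alb, had 7.33 FPKM of Itih4, above every OGTBKO library. The ratio of Itih4 to Alb was 1.17, 2.02, 0.398 and 4.97 in OGTBKO and 18.3, 0.840, 0.714 and 0.910 in WT. Without WT 2 and WT 4 the log2 change was -1.77, in the same direction and not called. The part of liver RNA in the difference of Itih4 was not tested. Relatives of Itih4 were near the detection limit or not called. Itih1, Itih2 and Itih3, whose proteins are joined to bikunin in plasma, gave at most 16 reads in a library. Itih5, the chain that adipocytes express, measured 31.3, 29.1, 28.8 and 34.7 FPKM in OGTBKO, against 21.9, 24.6, 44.3 and 24.2 FPKM in WT. Its log2 change of 0.16 was not called with all libraries and was called at 0.39 without WT 3. Tnfaip6, whose product transfers these chains to hyaluronan, had a log2 change of -0.55 and was not called, and Itih5 and Tnfaip6 were the only 2 tested of the 10 genes in this list, with 0 at an unadjusted p under 0.05.

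**Figure D3:**
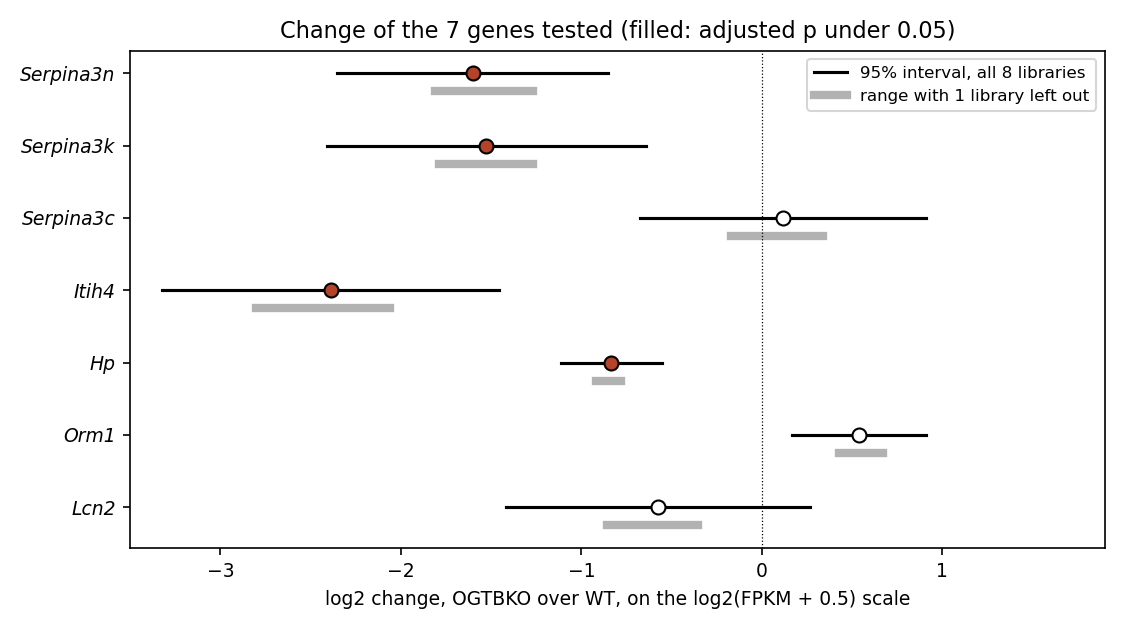
Log2 change of OGTBKO over WT on the log2(FPKM + 0.5) scale for the 7 genes tested, with the 95% interval from limma (line), and the range obtained with 1 library left out (grey bar); filled points were called. Itih4 lies farthest from 0 at -2.39, and the grey bar of Serpina3c crosses 0.

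Hp, at chr8:109575128-109579172 on the minus strand, was among the most abundant RNAs of the tissue, ranking 51st by the OGTBKO mean and 28th by the WT mean among 22046 protein-coding genes. It measured 460, 443, 481 and 441 FPKM in OGTBKO, against 910, 833, 679 and 847 FPKM in WT. The groups were apart, and the OGTBKO libraries lay closer to one another than the WT libraries did. The means were 456 ± 18.7 FPKM in OGTBKO and 817 ± 98.3 FPKM in WT, a log2 change of -0.83 ± 0.12 (SE). The call held with each library left out, and ended without WT 2 and WT 4 at a change of -0.79. The summed level of 10 brown adipocyte markers was also lower in OGTBKO, with 2337 to 2753 FPKM, against 3278 to 4602 FPKM in WT. Within WT the orders differed, with Hp highest in WT 1 and the sum highest in WT 4. In that list 4 genes were called lower and 1 higher, beside 7.46% and 8.11% of all genes, and 5 were not called. None was at 0, and Ucp1 averaged 1006 ± 79.3 FPKM in OGTBKO and 2050 ± 485 FPKM in WT. The summed level of 10 general adipocyte markers overlapped, with 3735 to 4996 FPKM in OGTBKO and 3220 to 4266 FPKM in WT. The part of the brown adipocyte state in the level of Hp was not tested.

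Orm1, at chr4:63344560-63348163 on the plus strand, went the other way in its mean but was not called. It measured 87.4, 52.0, 72.0 and 69.3 FPKM in OGTBKO, against 57.4, 43.7, 43.0 and 46.6 FPKM in WT. Only OGTBKO 2 and WT 1 overlapped, and the other OGTBKO libraries lay above every WT library. The log2 change was 0.54 with a 95% interval of 0.17 to 0.91, and it was called without OGTBKO 2, at 0.67, and without WT 1, at 0.63. Orm3, its neighbour and close copy, measured 7.96, 6.75, 3.67 and 4.92 FPKM in OGTBKO, against 10.5, 9.04, 5.62 and 10.6 FPKM in WT, with a log2 change of -0.59 that was not called (limma adjusted p = 0.144). The ratio of Orm1 to Orm3 was 11.0, 7.71, 19.6 and 14.1 in OGTBKO, against 5.49, 4.84, 7.65 and 4.39 in WT. OGTBKO 2 and WT 3 were nearly equal, at 7.71 and 7.65, and Orm3 had only 46 reads in WT 3. The groups are therefore not clearly apart in this ratio. Orm2 reached at most 1.02 FPKM. Of the stretches of 50 bases of Orm1 20.4% were also in Orm2 or Orm3, and of those of 100 bases 6.95%, all in Orm2. Orm3 shared 3.59% of its stretches of 50 bases and 0% of those of 100 bases. At 150 bases Orm1, Orm2 and Orm3 shared 0%. The read length is not given, so reads of these genes can be exchanged to an unknown extent.

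Lcn2, at chr2:32384633-32388252 on the minus strand, and Saa3, genes that stand for inflammation of adipose tissue in much work, were low here. Lcn2 measured 0.163, 0.402, 1.40 and 0.602 FPKM in OGTBKO, against 1.98, 0.692, 0.540 and 1.52 FPKM in WT. The groups overlapped, and the 95% interval of the log2 change of -0.58 ran from -1.42 to 0.27. Without OGTBKO 1 and WT 1 the change was -0.13, and with a pseudocount of 0.1 it was -0.90. Saa3 gave 0, 2, 2 and 9 reads in OGTBKO and 3, 4, 2 and 7 reads in WT, too few to show a difference. The liver genes Saa1, Saa2 and Saa4 gave 0 reads in every OGTBKO library and at most 7 in a WT library.

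Neutrophils carry Lcn2 protein in their granules, so their marker RNAs are given beside it. The sum of 12 neutrophil markers was 7.55, 5.41, 3.36 and 4.27 FPKM in OGTBKO, against 41.2, 37.1, 4.12 and 25.8 FPKM in WT. WT 1, WT 2 and WT 4 stood above the OGTBKO libraries and WT 3 did not. Of the 12 markers 4 were tested and 1 was called lower, where 7.46% of all genes were. This was S100a8, with 1.39 ± 0.713 FPKM in OGTBKO and 12.6 ± 8.59 FPKM in WT (log2 change -2.43, limma adjusted p = 0.0372). S100a9 averaged 1.42 ± 0.843 FPKM in OGTBKO and 9.21 ± 5.51 FPKM in WT and was not called (limma adjusted p = 0.0514). Ly6g, Camp and Ltf were at 0 in all OGTBKO libraries, and Camp and Ltf also in all WT libraries but WT 2. Ly6g gave at most 1 read in a WT library, and Camp and Ltf gave 5 and 2 reads in WT 2. These counts are too low to show a difference. Elane and Ngp overlapped between the groups, and Elane averaged 0.297 FPKM in OGTBKO and 0.255 FPKM in WT. In WT 3, whose neutrophil sum lay within the OGTBKO range, Itih4 was 2.76 FPKM, against at most 1.72 FPKM in OGTBKO, Serpina3n was 12.3 FPKM, against at most 8.57 FPKM, and Hp was 679 FPKM, against at most 481 FPKM. The part of neutrophil RNA in the levels of Lcn2, Itih4, Serpina3n and Hp was not tested.

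**Figure D4:**
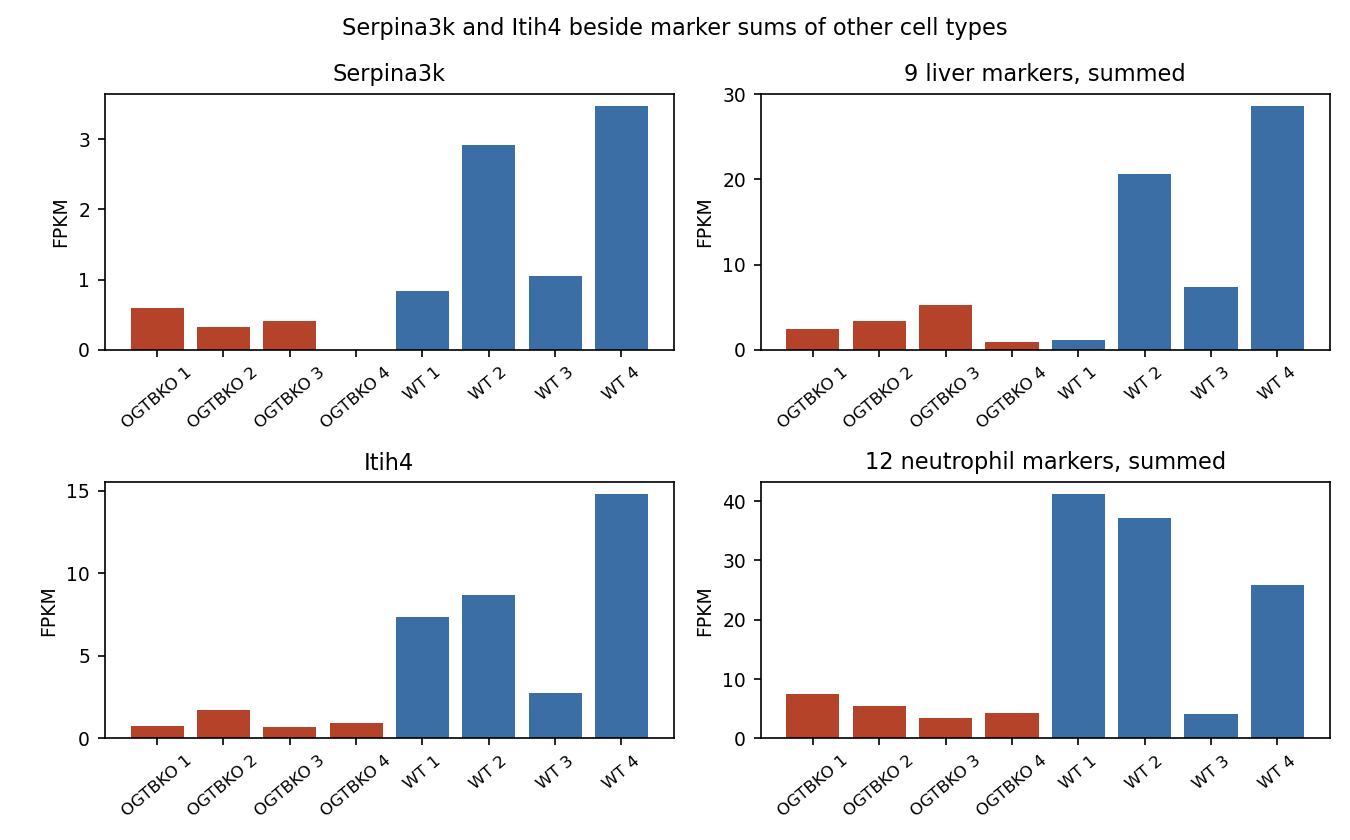
Bars from 0 give, in each library, the FPKM of Serpina3k (top left), 9 summed liver markers without Cyp2e1 (top right), Itih4 (bottom left) and 12 summed neutrophil markers (bottom right), with OGTBKO libraries left of WT libraries. The liver sum reaches 20.6 FPKM in WT 2 and 28.6 FPKM in WT 4, where Serpina3k is also highest, and the neutrophil sum is 4.12 FPKM in WT 3, where Itih4 is 2.76 FPKM.

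Of 28 other acute-phase proteins 13 were tested, 1 was called lower and none higher, where 7.46% of all genes were called lower. The median log2 change was -0.59, beside -0.00 over all genes. The list holds Alb and other liver genes, and the liver marker sum was 0.980 to 5.30 FPKM in OGTBKO and up to 20.6 and 28.6 FPKM in WT 2 and WT 4. The part of liver RNA in the list's median was not tested. Cp, which encodes the copper ferroxidase ceruloplasmin, was the gene called, at 3.48 ± 0.682 FPKM in OGTBKO and 6.01 ± 1.33 FPKM in WT (log2 change -0.70, limma adjusted p = 0.0314). This call ended without OGTBKO 2, OGTBKO 3, OGTBKO 4, WT 1, WT 2 or WT 3, at changes from -0.74 to -0.58. It ended too with library totals as denominator, without a filter, and after removal of the GC and length trend, where the change was -0.44. C4b, which encodes complement component C4, measured 15.5, 15.7, 9.54 and 3.67 FPKM in OGTBKO, against 28.9, 26.2, 16.5 and 24.4 FPKM in WT, and was not called (log2 change -1.23, limma adjusted p = 0.0677). Its groups did not overlap, with OGTBKO below, as in 11.4% of all genes tested. C3, named after its values were seen, had a log2 change of -0.73 (limma adjusted p = 0.181).

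Genes of the interleukin-6 and STAT3 axis changed in both directions. Of 25 genes 17 were tested, 3 rose and 2 fell, with a median log2 change of -0.02. Over all genes tested 8.11% were called higher and 7.46% lower. Among the receptors Lifr, for leukaemia inhibitory factor, fell to 4.25 ± 0.444 FPKM in OGTBKO, against 6.38 ± 0.381 FPKM in WT (log2 change -0.54, limma adjusted p = 0.011). Il6ra, Il6st and Osmr, named after their values were seen, had log2 changes of -0.13, -0.32 and -0.61 and were not called. The transcription factor gene Stat3 measured 6.51, 6.50, 6.40 and 7.02 FPKM in OGTBKO, against 13.6, 10.2, 8.68 and 9.19 FPKM in WT, and was called lower (log2 change -0.60, limma adjusted p = 0.0223). This call ended without OGTBKO 2, OGTBKO 3 or WT 2, at changes of -0.59, -0.59 and -0.60. It ended too with the replicate block, with library totals (-0.49) and after removal of the GC and length trend (-0.59). Pim1, a kinase gene that STAT3 and STAT5 induce, rose to 39.8 ± 5.52 FPKM in OGTBKO, against 16.6 ± 6.26 FPKM in WT (log2 change 1.31, limma adjusted p = 0.0145).

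Junb, an AP-1 component, rose to 6.71 ± 1.70 FPKM in OGTBKO, against 2.92 ± 0.875 FPKM in WT (log2 change 1.09, limma adjusted p = 0.0178), a call that ended without OGTBKO 3 at 1.03 and after removal of the GC and length trend at 0.81. Cebpb, for a C/EBP factor of the acute-phase response, averaged 113 ± 9.66 FPKM in OGTBKO and 66.5 ± 19.7 FPKM in WT (log2 change 0.82, limma adjusted p = 0.0345). That call ended with any of the 4 OGTBKO libraries or WT 2 left out, at changes from 0.79 to 0.88. It ended too with the replicate block, with library totals, without a filter, and after removal of the GC and length trend, where the change was 0.45. Socs3, the feedback inhibitor of this pathway, had a log2 change of -0.02 and was named after its values were seen. Il6 itself reached at most 0.0756 FPKM in any library. The log2 changes of Pim1, Lifr, Junb, Stat3 and Cebpb without WT 2 and WT 4 were 0.91, -0.55, 1.32, -0.68 and 0.96, in the same directions, and none was then called.

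**Figure D5:**
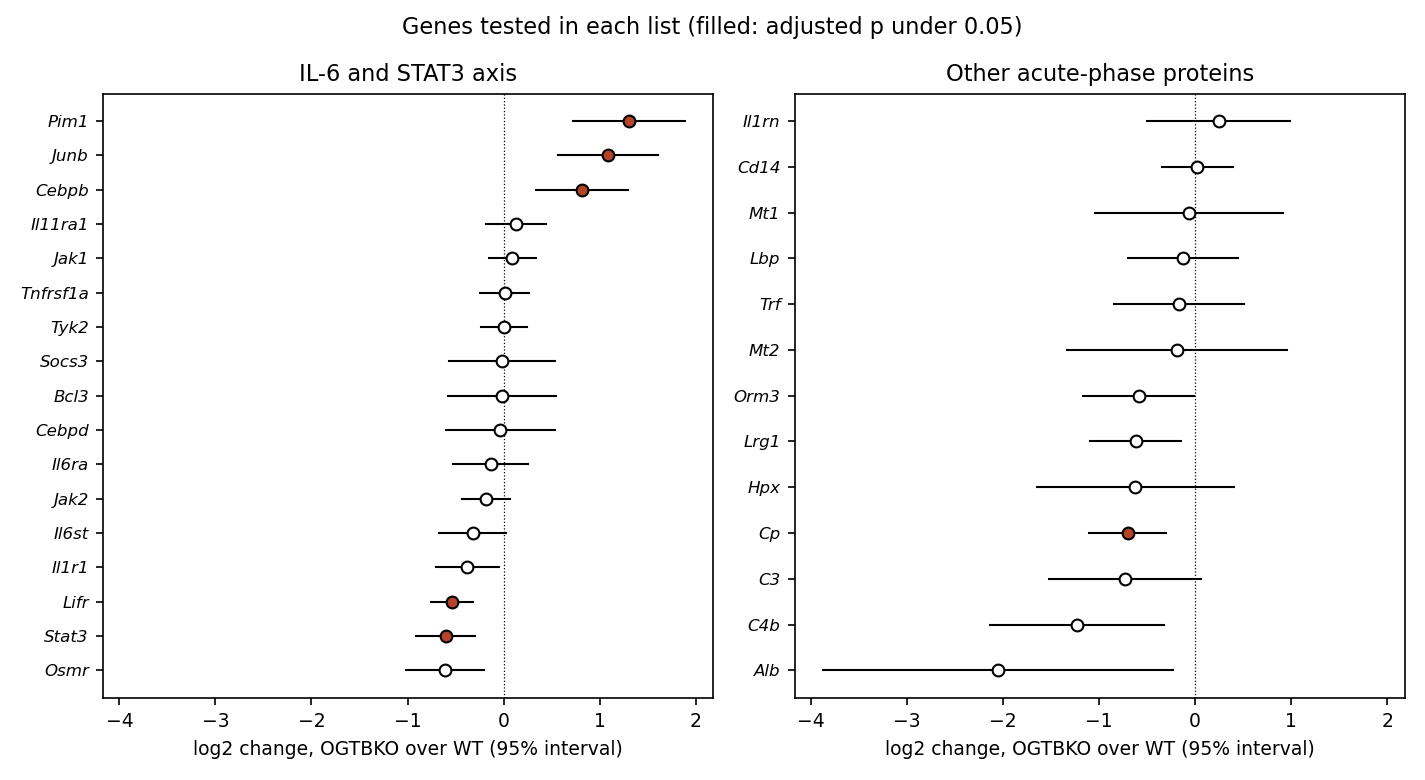
Log2 change of OGTBKO over WT on the log2(FPKM + 0.5) scale, with 95% intervals from limma, for the 17 genes tested of the interleukin-6 and STAT3 axis (left) and the 13 tested of the other acute-phase proteins (right), with filled points for genes called. On the left Pim1, Junb and Cebpb are filled above 0 and Lifr and Stat3 below it, and on the right only Cp is filled, while 11 of the 13 points lie below 0.

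In the NF-kappaB axis 17 of 19 genes were tested, 1 fell and none rose, where 7.46% of all genes were called lower. The median log2 change was -0.01. The gene called was Rel, a subunit of the factor, at 1.46 ± 0.277 FPKM in OGTBKO and 2.27 ± 0.272 FPKM in WT (log2 change -0.50, limma adjusted p = 0.0366). The call of Rel ended with any library but OGTBKO 4 and WT 1 left out, at changes from -0.54 to -0.41. It ended too with the replicate block, with library totals, without a filter, and after removal of the GC and length trend, where the change was -0.28. Nfkbie, an inhibitor of the factor, had a log2 change of 0.51 and was not called.

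In the glucocorticoid list 17 of 18 genes were tested, 2 fell and none rose, where 7.46% of all genes were called lower. The median log2 change was -0.37, beside -0.00 over all genes, and 13 of the 17 were below 0. Pdk4, a kinase that restrains glucose oxidation, and also a gene of the brown adipocyte list, fell to 388 ± 76.0 FPKM in OGTBKO, against 675 ± 37.8 FPKM in WT (log2 change -0.82, limma adjusted p = 0.0119). Per1, a clock gene, averaged 3.29 ± 0.680 FPKM in OGTBKO and 6.48 ± 2.54 FPKM in WT (log2 change -0.83, limma adjusted p = 0.048). Its call ended with any library but WT 2 left out, at changes from -0.91 to -0.61, and also with the replicate block, with library totals, with a pseudocount of 1 and without a filter. Fkbp5 and Zbtb16 respond to glucocorticoids in many tissues and were named after their values were seen. They were lower in every OGTBKO library than in any WT library, as were 11.4% of all genes tested. Neither was called (log2 changes -0.89 and -1.38, limma adjusted p = 0.0764 and 0.0574). Tsc22d3, of the same list and named in the same way, overlapped, with 6.79 to 8.27 FPKM in OGTBKO and 6.40 to 21.2 FPKM in WT. It was not called (log2 change -0.38, limma adjusted p = 0.432).

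In the interferon-gamma list 21 of 23 genes were tested, 1 fell and none rose, where 7.46% of all genes were called lower. The median log2 change was -0.46, beside -0.00 over all genes, and 19 of the 21 were below 0. Ly6a, which also marks adipose progenitors, was the gene called, at 43.8 ± 14.2 FPKM in OGTBKO and 83.4 ± 20.9 FPKM in WT (log2 change -0.93, limma adjusted p = 0.0333). Its call ended without OGTBKO 1, OGTBKO 3, OGTBKO 4, WT 2 or WT 4, at changes from -0.93 to -0.80, and also with library totals and without a filter. Gbp7, a guanylate-binding protein gene, had 20.2 FPKM in WT 3 and 4.72 to 7.96 FPKM in the other WT libraries, against 2.78 to 3.75 FPKM in OGTBKO. It was not called with all libraries, and was called without WT 3, at a log2 change of -0.80, and without WT 1, at -1.46.

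Of 23 proteases that these serpins can meet 12 were tested and limma called 0, with 1 higher at an unadjusted p under 0.05 and a median log2 change of -0.07. Ctss, the lysosomal protease cathepsin S of antigen-presenting cells, measured 25.1, 62.8, 63.4 and 65.5 FPKM in OGTBKO, against 27.7, 24.1, 25.1 and 29.5 FPKM in WT. It was called higher without OGTBKO 1, at a log2 change of 1.25, against 0.92 with all libraries (limma adjusted p = 0.0566). Of 10 macrophage markers 1 was called lower, where 7.46% of all genes were. Their sum was 247, 569, 452 and 493 FPKM in OGTBKO, against 364, 285, 182 and 337 FPKM in WT. OGTBKO 1 was the lowest OGTBKO library for that sum as for Ctss. The part of macrophages in the level of Ctss was not tested. Ctsb, for cathepsin B, had a log2 change of -0.24.

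Of the genes that handle haptoglobin, haem and siderophores 11 of 12 were tested, 1 rose and 1 fell, with a median log2 change of 0.13. The shares called over all genes were 8.11% higher and 7.46% lower. Cd163, the macrophage receptor for complexes of haptoglobin and haemoglobin, was called lower, at 4.84, 2.91, 2.45 and 1.49 FPKM in OGTBKO, against 8.48, 5.97, 4.24 and 6.84 FPKM in WT (log2 change -1.06, limma adjusted p = 0.0413). OGTBKO 1 and WT 3 overlapped, and the call ended with OGTBKO 2, OGTBKO 3, OGTBKO 4, WT 1, WT 2 or WT 4 left out, at changes from -1.09 to -0.83, and also with library totals, without a filter and after removal of the GC and length trend. Tfrc, the receptor that takes up transferrin-bound iron, rose, with 20.4, 48.7, 33.9 and 101 FPKM in OGTBKO, against 6.53, 10.4, 7.27 and 7.06 FPKM in WT (log2 change 2.41, limma adjusted p = 0.00938). The calls of Tfrc, Pdk4, Pim1 and Lifr held with each library left out in turn, but that of Lifr ended with library totals (-0.43), and its change was -0.33 with the GC and length trend removed.

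By Pearson correlation of log2(FPKM + 0.5) over the 8 libraries, among 9897 protein-coding genes, the genes most like Serpina3n were Il4ra (0.978), Ccl8 (0.978) and Zfp65 (0.973). Those most like Itih4 were Lrif1 (0.992), Pole4 (0.978) and Tmem33 (0.976). Among the 10 genes, Serpina3n correlated at 0.867 or higher with Hp and Itih4, at 0.281 with Serpina3c and at -0.65 with Orm1. These coefficients include the difference between the groups, share the libraries and their scaling, and are given as a description.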

How the data were processed

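Brown adipose tissue RNA was measured in 4 OGTBKO and 4 WT libraries. Per the labels' protocols, RNA integrity was checked on a Bioanalyzer and libraries were made with a NEBNext Ultra kit. HISAT2 2.0.5, featureCounts 1.5.0-p3 and mm10 appear in the submitters' processing notes; the use of strand and of reads with several matches is not given. The authors deposited FPKM values for 54532 genes. Multiplied by gene length, 100% of the deposited FPKM values were whole multiples of 1 read (tolerance 0.001), so reads per gene were back-calculated; the FPKM denominators were 0.790 to 1.13 times the library totals, so a change is relative to the typical gene. Identifiers matched GENCODE M21 for 99.9% of genes. No value column was left out.

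Genes with a mean of at least 0.5 FPKM (13171) were compared as log2(FPKM + 0.5) with limma 3.58.1 in R 4.3.3 (eBayes with trend, two-sided, no covariates, all 8 libraries), with Benjamini-Hochberg adjustment over all of them and a call at an adjusted p under 0.05. The code was tested on simulated data. Libraries of a group differed by more than sampling noise (chi-square per degree of freedom 16.0 to 99.6). Shared stretches and coding identity were computed from GENCODE M21 transcripts with Biopython 1.88. Promoter windows came from RefSeq. Precision from read numbers covers counting error only.

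The 10 genes and all gene lists were chosen with earlier results of these data known. From each list all called genes up to 6 by p were named, or the 2 with the smallest p where fewer than 2 were called. All listed clade A serpins with a read, and the 3 genes most like Serpina3n and Itih4 (mean at least 1 FPKM) were named too. Marker genes were read as sums. Alb, Ucp1, S100a8, S100a9, Elane, Ngp and marker genes at 0 were named singly. Alternatives were 2 other pseudocounts, 2 other filters, library totals, a correction for GC content and length, array weights, a replicate block, each library left out, and 2 sets of libraries left out after the data were seen.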

Additional observations from a re-analysis of the deposited data

Results flagged for a closer look

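In WT 3 Itih5 measured 44.3 FPKM, far above the 21.9 to 24.6 FPKM of the other WT libraries. In OGTBKO 1 Ctss measured 25.1 FPKM, far below the 62.8 to 65.5 FPKM of the other OGTBKO libraries. Each was flagged because the gap to the nearest library, divided by the range of the group, exceeded Dixon's critical value for 4 values. In all, 64 groups of 4 libraries were looked at and 2 were flagged, while chance flags about 1 in 20.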

How the results depend on the processing

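Serpina3n, Serpina3k, Itih4 and Hp kept their direction under all 18 alternatives, and Ogt its direction and call, at log2 changes from -1.16 to -0.81. The 4 genes called lower of the 10 became 2 to 4 with 1 library left out and 0 without WT 2 and WT 4. The 0 called higher became 1, Orm1, with array weights, and 0 to 1 with 1 library left out. Serpina3c ranged from -0.17 to 0.34 with 1 library left out, reversing without OGTBKO 1 (-0.17) and WT 2 (-0.012), and was -0.12 without WT 2 and WT 4, where Itih5 also reversed (-0.013). With the GC and length trend removed the changes of Serpina3n, Itih4, Hp and Orm1 were -1.76, -2.47, -1.08 and 0.40.

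The 2050 genes called in all became 1229 without a filter, 1237 with library totals, 3516 with array weights, 888 with the replicate block, 176 without WT 2 and WT 4, and 694 to 2115 with 1 library left out. In the gene lists the 8 called lower became 3 without a filter, 2 with library totals, 5 with the GC and length trend removed, 24 with array weights, 1 without WT 2 and WT 4, 13 without OGTBKO 1 and WT 1, and 2 to 10 with 1 library left out. The 4 called higher became 2 with the GC and length trend removed, 10 with array weights, 0 without WT 2 and WT 4, and 2 to 7 with 1 library left out. Of the 12 list genes called, 0 kept the call in every alternative. Fewer libraries enter each fit that leaves some out, and otherwise the cause was not tested.

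The deviations of same-numbered libraries from their group means correlated at 0.220 and 0.169 for numbers 1 and 2, and at 0.0143 and -0.00696 for numbers 3 and 4. Since not every pair passed 0.1, the numbers were not taken to pair the libraries. With the replicate block 3 of the 10 genes were called lower, without Serpina3k, and 0 higher. Depth limits Serpina3k, Serpina3g, Serpina3f, Saa3 and Lcn2 most, since few reads stood behind them.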
